A study of Mus musculus with 2 samples.

Results

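Neuropeptide precursors are the secreted proteins from which neurons cut signalling peptides. Cell surveys of the cerebral cortex name many of its inhibitory neurons by them. The 10 precursor genes described here are Sst, Npy, Vip, Cck, Tac1, Crh, Penk, Pdyn, Cort and Pnoc. They were taken by symbol from the 55536 annotated genes in the tables, and all 10 were found. The rule takes them by name and not by a measured value, although earlier results of these data were known when they were chosen.

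The tissue was left cerebral cortex, from female mice of the hybrid strain B6CASTF1/J (a cross between C57BL/6J and CAST/EiJ) at an age of 18 to 20 months. No treatment, engineered allele or comparison group is given. Total RNA, 300 ng per library, was sequenced in 2 libraries, the biological replicates 1 and 2 of 1 group. The labels list a single donor for both biosamples. It is not clear that 2 animals were used, and the spread between the libraries may be technical. The libraries held 32504959 and 24899781 expected counts. Excitatory cortical markers such as Slc17a7 and Tbr1 were all at 1 TPM or more in both libraries (10 of 10), as were 10 of 10 striatal markers. So were 5 of 8 hippocampal, 4 of 10 thalamic and hypothalamic and 4 of 6 olfactory bulb markers, several of which the cortex also expresses. Of 22015 nuclear protein-coding genes 58.3% were at that level, so these counts alone do not measure tissue content.

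A precursor enters the secretory pathway, where convertases cut it at pairs of basic residues, a carboxypeptidase trims the ends and, for many peptides, an amidating enzyme converts a terminal glycine. The peptides are stored in dense-core vesicles and act on G protein-coupled receptors. In the cortex, somatostatin and VIP mark separate classes of GABA-releasing neurons, NPY is made by several of these classes, and Cck is used by both inhibitory and excitatory cells. In bulk tissue, fewer cells of a type and less RNA per cell cannot be told apart.

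All 10 precursors were detected. Levels are in TPM, a relative abundance that corrects for transcript length and library size. Each member reached 1 TPM in both libraries, as 58.3% of 22015 nuclear protein-coding genes did. At 10 TPM in both, 7 of 10 members remained, and the share of all genes at that level was not computed. From high to low the order of mean TPM was Cck, Sst, Npy, Penk, Vip, Tac1, Pdyn, Cort, Crh and Pnoc, a 77.7-fold range. The 2 libraries' ranges overlapped for the neighbours Tac1 and Pdyn, Cort and Crh, and Crh and Pnoc, whose order is therefore within the spread. For the other neighbours, every library of the higher gene lay above every library of the lower one in the gene table. In the alignment-free tables, described below, Vip (49.1 and 37.7 TPM) and Tac1 (40.3 and 20.6 TPM) overlapped as well. The deposited lower and upper bounds of the gene table also overlapped between Npy and Penk and between Vip and Tac1. Together the 10 genes held 773 TPM in replicate 1 and 648 TPM in replicate 2. Cck and Sst made up most of it, 69.2% and 70.1%.

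**Figure D1:**
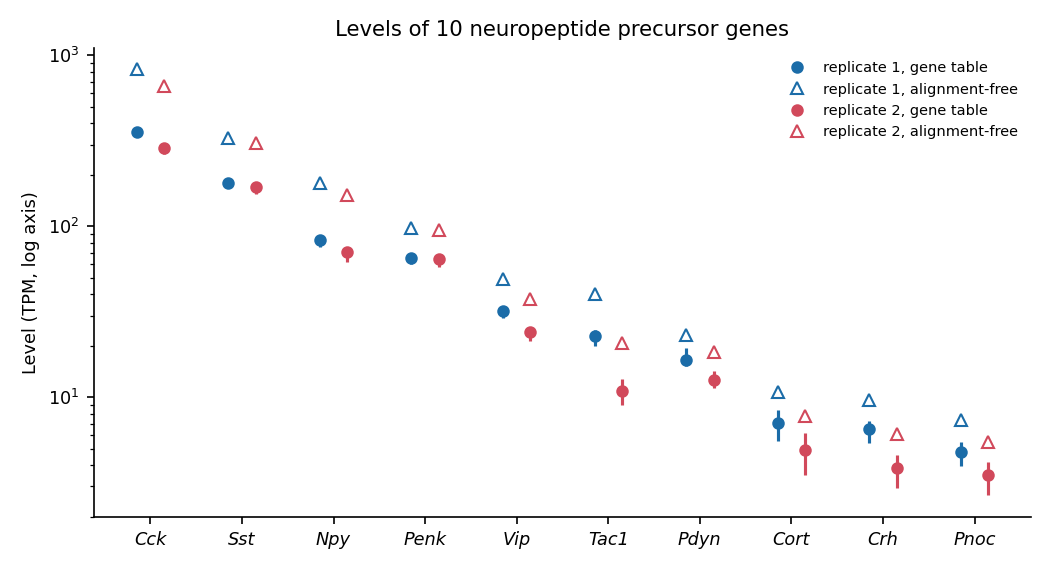
TPM (log axis) of the 10 precursor genes in each library. Filled circles are the gene table with the deposited lower and upper bounds of each estimate as lines, and open triangles are the alignment-free table summed to genes; the order is the same in both, and Tac1 has the widest gap between libraries.

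Cholecystokinin and somatostatin headed the order. Cck, on mm10 chr9:121489824-121495694 (minus strand), had 356 TPM in replicate 1 and 285 in replicate 2, or 321 ± 50.2 TPM (SD, n = 2), and stood at rank 124 of the nuclear protein-coding genes. Sst, on chr16:23889573-23890958 (minus strand), had 179 and 169 TPM, or 174 ± 7.23 TPM (SD, n = 2), at rank 371. Both libraries were close for Sst, and replicate 1 was the higher for Cck. Somatostatin dampens release from neurons and endocrine cells, and cortical Sst cells target the dendrites of pyramidal neurons.

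Npy encodes neuropeptide Y, an inhibitory peptide of cortical interneurons. On chr6:49822710-49829507 (plus strand), it had 83.4 and 70.2 TPM, or 76.8 ± 9.31 TPM (SD, n = 2). Vip encodes vasoactive intestinal peptide, whose cortical cells mainly inhibit other interneurons. On chr10:5639218-5647617 (plus strand), it had 31.9 and 24.1 TPM, or 28.0 ± 5.54 TPM (SD, n = 2). For both genes replicate 1 was higher, and their deposited bounds did not overlap between libraries. The bounds lay wholly lower in replicate 2 for 4.76% of the 18246 genes averaging at least 10 counts.

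Tac1 encodes the tachykinins substance P and neurokinin A, and Crh encodes corticotropin-releasing hormone, the peptide that starts the pituitary stress response and is also made by cortical interneurons. Tac1, on chr6:7554879-7565834 (plus strand), had 22.9 TPM in replicate 1 and 10.9 in replicate 2, or 16.9 ± 8.46 TPM (SD, n = 2), from 407 and 153 counts. Crh, on chr3:19693401-19695396 (minus strand), had 6.47 and 3.84 TPM, or 5.16 ± 1.86 TPM (SD, n = 2), from 178 and 79 counts. These were the members with the widest fold differences between the libraries, replicate 1 being the higher in each.

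The somatostatin relative Cort encodes cortistatin, which binds the somatostatin receptors. Cort, on chr4:149125034-149126763 (minus strand), had 7.06 and 4.92 TPM, or 5.99 ± 1.51 TPM (SD, n = 2). It rests on 92 and 48 counts, the fewest of the 10 members, and its bounds overlapped between libraries. Mean Sst TPM was 29.1 times that of Cort. The gene Cenps ends 357 bases upstream of Cort on the same strand, and its level was 13.4 and 14.6 TPM. The stretches that encode the cyclic ends of somatostatin and cortistatin are shown because they are what the pair shares. Capitals mark the codons of Phe-Trp-Lys-Thr, the receptor-binding core, on mm10 chr16:23889732-23889773 for Sst and chr4:149125270-149125311 for Cort, both from the minus strand, 5′ to 3′:
Sst-201: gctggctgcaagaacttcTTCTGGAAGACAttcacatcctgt
Cort-201: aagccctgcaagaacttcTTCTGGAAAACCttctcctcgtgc
Over these 14 codons, 11 encoded residues and 31 of 42 bases are identical.

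The opioid-type precursors were led by Penk. It encodes proenkephalin and lies on chr4:4133531-4138819 (minus strand). Penk had 64.8 TPM in replicate 1 and 63.9 in replicate 2, or 64.4 ± 0.651 TPM (SD, n = 2), the smallest gap of the 10 members. An antisense gene, A830012C17Rik, overlaps it and had 2 and 1 counts. Whether counting used strand is not given in the sources used here. Pdyn encodes prodynorphin, the source of kappa receptor ligands. On chr2:129686565-129699844 (minus strand), it had 16.6 and 12.6 TPM, or 14.6 ± 2.77 TPM (SD, n = 2). Pnoc encodes the precursor of nociceptin, which acts on its own receptor, Oprl1. On chr14:65400673-65425472 (minus strand), it had 4.77 and 3.48 TPM, or 4.13 ± 0.912 TPM (SD, n = 2). Mean Penk TPM was 4.41 times that of Pdyn, which was 3.54 times that of Pnoc, and no library of one gene reached any library of the next.

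These 3 precursors differ in how many opioid-type peptides 1 transcript encodes. The coding part of Penk-201 has 268 codons with 12 pairs of basic residues, 6 Met-enkephalin cores and 1 Leu-enkephalin core. Pdyn-201 has 248 codons, 8 basic pairs and 3 Leu-enkephalin cores, and Pnoc-201 has 187 codons, 7 basic pairs and 1 nociceptin core. Each core is shown with the adjoining codons, which in several cases belong to a longer peptide. Capitals mark the core, all read 5′ to 3′ from the minus strand of mm10 and numbered from the start of the protein. They lie within chr4:4133842-4134354 for Penk, chr2:129688067-129688258 for Pdyn and at chr14:65404872-65404898 for Pnoc:
Penk, Met-enkephalin 1: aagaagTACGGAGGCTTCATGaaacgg
Penk, Met-enkephalin 2: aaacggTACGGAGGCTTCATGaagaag
Penk, Met-enkephalin 3: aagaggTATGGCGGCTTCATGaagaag
Penk, Met-enkephalin 4: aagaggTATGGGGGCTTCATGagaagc
Penk, Met-enkephalin 5: aagcgcTACGGGGGCTTCATGagaagg
Penk, Met-enkephalin 6: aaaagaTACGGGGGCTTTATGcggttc
Penk, Leu-enkephalin: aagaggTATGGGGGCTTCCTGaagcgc
Pdyn, Leu-enkephalin 1: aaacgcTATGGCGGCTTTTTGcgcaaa
Pdyn, Leu-enkephalin 2: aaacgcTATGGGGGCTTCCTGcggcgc
Pdyn, Leu-enkephalin 3: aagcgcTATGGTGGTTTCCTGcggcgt
Pnoc, nociceptin: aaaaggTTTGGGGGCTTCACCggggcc
The enkephalin cores begin with Tyr-Gly-Gly-Phe, and the nociceptin core begins with a phenylalanine codon in place of the tyrosine. A basic pair precedes every core. In Penk the sixth Met-enkephalin core lies at the very end of the coding part. The Pdyn cores open alpha-neoendorphin, dynorphin A and dynorphin B, in that order.

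All 10 precursors had an effective length, the length open to reads, under 2300 bases, and most had 1 main form. Sst, Npy, Crh and Cort have 1 annotated transcript each. Of the 6 members with several, Vip, Pdyn and Penk had the same leading transcript in all 4 transcript tables, 2 libraries by 2 kinds of table. Vip-201 held 97.9% ± 0.779 of the gene's TPM by alignment (SD, n = 2), with the rest in a retained-intron form. Pdyn-201 held 95.4% ± 0.339 (SD, n = 2). Penk-201 held 78.8% ± 0.247 (SD, n = 2) there and 100% in the alignment-free tables, where Penk-202, a form with an incomplete coding part, was at 0.

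For Cck, Tac1 and Pnoc the 2 kinds of table named different leading transcripts. Cck-201 had 92.3% ± 0.757 of the gene in the alignment-based tables and 27.6% ± 2.83 in the alignment-free ones (SD, n = 2). There Cck-203 led with 39.5% ± 1.41, and Cck-205, whose annotated coding part is incomplete, had 32.0% ± 1.85 (SD, n = 2). Cck-201 and Cck-203 have coding parts of equal length, 115 codons, and together held 95.9% and 95.2% of the gene by alignment and 66.0% and 68.0% without it. Pnoc-202 led with 59.2% ± 3.08 by alignment, and Pnoc-201 led with 65.5% ± 0.700 without it (SD, n = 2). Differences between tables were much larger than those between libraries, so no main form is named for Cck or Pnoc.

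In Tac1 the form decides which tachykinins are encoded. Tac1-203 and Tac1-205 encode substance P and neurokinin A, and Tac1-201 encodes substance P alone. By alignment, transcripts with both peptides held 65.3% of Tac1 in replicate 1 and 78.0% in replicate 2, and Tac1-201 held 34.7% and 20.2%. In the alignment-free tables the shares with both peptides were 80.4% and 84.0%, and Tac1-201 was listed at 0. Most of the Tac1 level thus lay in forms with both tachykinins in every table, while the share of the form without neurokinin A differed between the kinds of table. The remainder of the alignment-free level was Tac1-204, a form with an incomplete coding part of 15 codons, at 17.8% ± 2.48 (SD, n = 2).

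**Figure D2:**
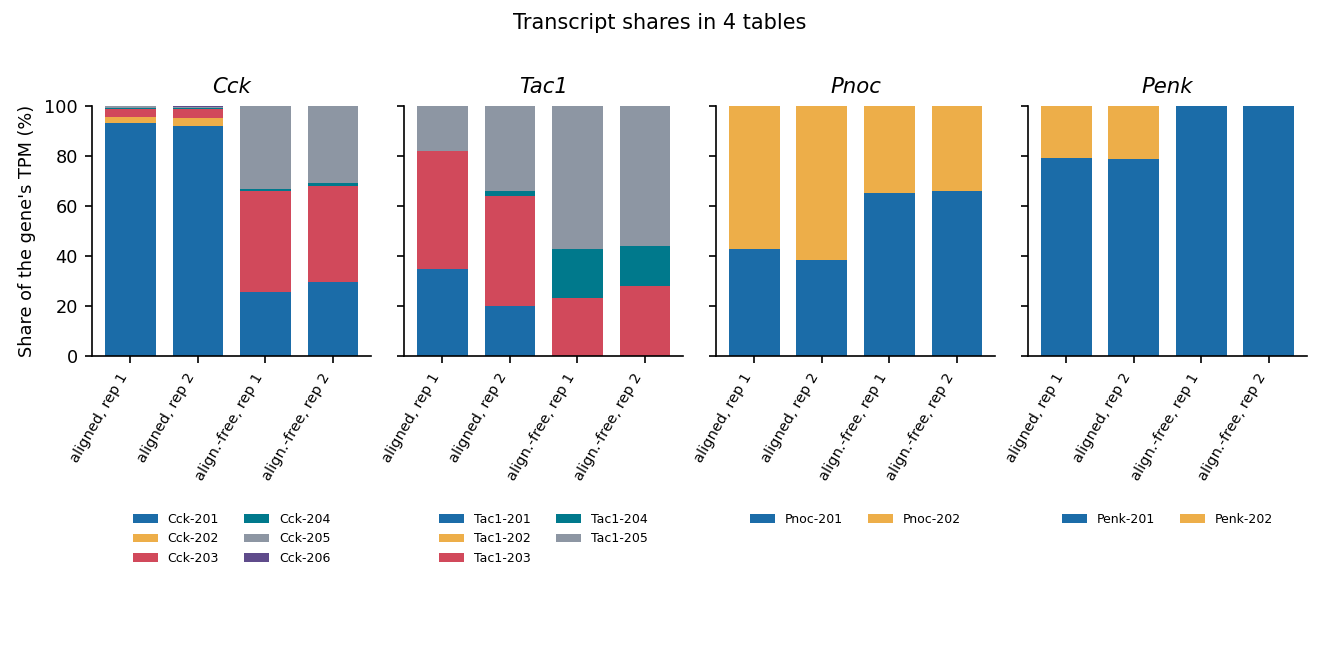
Share of each gene's TPM (in %) held by its annotated transcripts, for Cck, Tac1, Pnoc and Penk, in the alignment-based and alignment-free tables of both libraries. The leading transcript of Cck, Tac1 and Pnoc changes with the kind of table (Cck-201 at 92.3% against 27.6% on average) more than with the library.

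The amidated ends of the tachykinins and cholecystokinin are shown because the amide is needed for activity at their receptors. Capitals mark the shared end of the tachykinins and the Trp-Met-Asp-Phe end of cholecystokinin, each followed by a glycine codon, the source of the amide, and by a basic pair. The stretches are from mm10 chr6:7556744-7556773 and chr6:7559110-7559139 (plus strand) and chr9:121490098-121490130 (minus strand):
Tac1-205, substance P end: cagcagTTCTTTGGATTAATGggcaagcgg
Tac1-205, neurokinin A end: gattccTTTGTTGGACTAATGggcaaaaga
Cck-201, cholecystokinin end: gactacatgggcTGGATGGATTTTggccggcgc
Tac1-205 has 130 codons with 7 basic pairs, and Cck-201 has 115 codons with 3.

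The cAMP response element, CRE, is a DNA motif described first in the somatostatin promoter. Its letters, TGACGTCA, were searched in the 250 bases before the start site in RefSeq promoters (GRCm38.p6), with the shorter forms TGACG and CGTCA searched outside it on both strands. Of the 10 members, 7 have a promoter entry: Sst, Npy, Vip, Cck, Tac1, Pdyn and Cort. The full element stood in 1 of the 7, Sst, 41 bases before the RefSeq start, and in 1.55% of 32851 promoters. Shorter forms stood in Cck, Cort, Tac1 and Vip, so that 5 of the 7 held a full or shorter form, against 17.8% of all promoters. The RefSeq start lies 114 bases downstream of the GENCODE gene start for Sst and 182 bases downstream for Tac1, so the Sst match and the nearer Tac1 match fall inside the gene spans given above. For Cck, Cort, Npy and Vip both starts are the same base, and Pdyn has 2 RefSeq entries. Neither was found in the windows of Npy and Pdyn. The matches are shown with the motif in capitals, from the gene's own strand, at chr16:23890875-23890902 (minus) for Sst, chr9:121495726-121495752 (minus) for Cck, chr4:149126766-149126792 (minus) for Cort, chr6:7554853-7554879 and chr6:7555007-7555033 (plus) for Tac1 and chr10:5639128-5639154 (plus) for Vip:
Sst: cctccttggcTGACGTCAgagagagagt
Cck: ctgctggactgCGTCAgcactgggtaa
Cort: tccggcttgtgCGTCAccgcgtgagtg
Tac1, 193 bases before the start: ccctaaaattgCGTCAtttcgaacaca
Tac1, 39 bases before the start: ctctacaggctCGTCAcgcctgagata
Vip: gatcactactgTGACGtctttcgggga
A match describes the letters in the window and does not show that a factor binds there.

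All 10 precursors were lower in replicate 2 than in replicate 1, or 8 of 10 when the counts were scaled to spike-in entries. On the spike-in scale 23.5% of all tested genes were lower. The difference is a log2 ratio of replicate 2 to replicate 1, from counts scaled with edgeR's TMM (a scaling that takes most genes as equal), for 18246 genes averaging at least 10 counts. Of those genes 50% were below 0 and their median was 0.00, against a median of -0.43 for the members. With 1 library on each side there is no replicate check and no test. The 95% intervals below are exact binomial and cover counting error only.

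The gap was widest for Tac1, with a log2 ratio of -1.02 (counting interval -1.31 to -0.76), and 0.954% of tested genes lay as low or lower. Crh followed at -0.78 (-1.19 to -0.40). These were the only members lower by over 1.5-fold, 2 of 10 against 3.62% of all tested genes, and Tac1 alone was lower by over 2-fold, against 1.01%.

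Cort (-0.54, counting interval -1.09 to -0.04), Pnoc (-0.52, -0.90 to -0.15), Vip (-0.43, -0.58 to -0.29), Pdyn (-0.42, -0.59 to -0.26) and Cck (-0.37, -0.43 to -0.30) came next. Npy was at -0.29 (-0.44 to -0.13). Sst (-0.12, -0.21 to -0.04) and Penk (-0.06, -0.17 to 0.04) were nearest to 0. With TMM scaling, Penk was the only member whose counting interval included 0. Intervals were not computed with spike-in scaling, where all members' ratios lay higher and more intervals could include 0. Counting intervals were computed for the members alone, so the share of all tested genes whose interval excludes 0 is not known. The deposited TPM bounds, whose confidence level is not stated, lay wholly lower in replicate 2 for 6 members, Npy, Vip, Cck, Tac1, Crh and Pdyn, and for 4.76% of all tested genes.

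Scaling to the spike-in entries, those named ERCC or phiX pooled together, raised the median of all genes by 0.16. On that scale Sst (0.04) and Penk (0.10) were higher in replicate 2 and the other 8 members were lower, while all 10 lay below the shifted median. Transcript length moved with the difference as well. Protein-coding genes with an effective length under 600 bases, the class of Npy, Cck and Cort, had a median log2 ratio of -0.15, with 76.1% of 385 below 0. From 600 to 1300 bases (Sst, Tac1, Crh and Penk) the median was -0.09, from 1300 to 2300 bases (Vip, Pdyn and Pnoc) it was -0.06, and for longer genes it was 0.00. After subtracting the median of the length class, a step added after seeing the data, 9 of 10 members stayed below 0, from -0.04 for Sst to -0.94 for Tac1, and Penk was at 0.02. The median over the members was then -0.37.

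**Figure D3:**
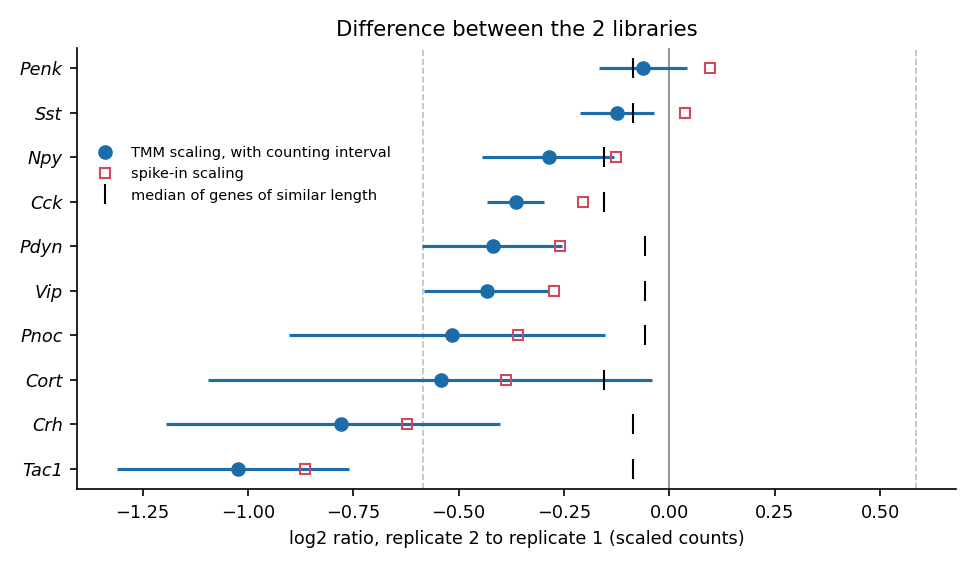
Log2 ratio of replicate 2 to replicate 1 of each precursor (circles, scaled with TMM, with 95% counting intervals as lines), the same with spike-in scaling (open squares) and the median of protein-coding genes of similar effective length (black ticks). Dashed lines mark 1.5-fold; Tac1 and Crh lie past it, and Sst and Penk lie on the other side of 0 with spike-in scaling.

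Markers of inhibitory neurons, the main source of most of these peptides in the cortex, were lower in replicate 2 for 20 of 25, or for 13 of 25 with spike-in scaling. Their median log2 ratio was -0.19, or -0.03 with spike-in scaling, and their summed level was 728 and 641 TPM. Gad1, which makes GABA and whose reads are partly shared with other genes, was at -0.30, Slc32a1, the vesicular GABA transporter, at -0.24, and Pvalb, the calcium-binding protein of fast-spiking cells, at -0.50. Htr3a, a serotonin receptor subunit found in Vip cells, was at -0.61, and Lhx6, a factor of the Sst and Pvalb lineages, at -0.07. The abundant Satb1 (-0.05) and Calb1 (-0.06) were close to 0. The 5 that were higher in replicate 2 were Chodl (0.09), Reln (0.06), Dlx6os1 (0.05), Chat (0.03) and Nos1 (0.01). Excitatory markers had a median of -0.03.

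Penk, Pdyn and Tac1 are also strongly expressed in the striatum, which lies under the cortex. All 10 striatal markers were detected, summing to 261 and 253 TPM, and 7 of 10 were lower in replicate 2, or 5 of 10 with spike-in scaling (medians -0.17 and -0.01). Drd1, the dopamine receptor of Tac1 and Pdyn cells there, was the lowest at -0.44. Of 3 markers of Penk cells, Adora2a was at -0.42, Gpr6 at -0.24 and Drd2 at -0.18. Pde10a (0.20), Rgs9 (0.02) and Six3 (0.02) were above 0, and Ppp1r1b, the most abundant, was at -0.19. Medians were -0.06 for 8 hippocampal, -0.04 for 5 tested thalamic and hypothalamic and -0.01 for 5 tested olfactory bulb markers, -0.30 for 10 glial and -0.57 for 10 vessel and blood markers. The part of inhibitory neurons, striatal tissue, glia, vessels, transcript length and depth in the members' difference was not tested.

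Most listed genes that answer to stress hormone or neuronal activity went the other way. Of 7 glucocorticoid-responsive genes 6 were higher in replicate 2 (median 0.97), with Plin4 the highest at 1.84 and Fkbp5 at 1.03. Nr3c1 was lower, at -0.34. Of 10 activity-regulated genes 8 were higher (median 0.27), with Fosb, a factor induced by firing, at 1.32 and Npas4 at 0.55. Bdnf was at 0.06, and Nr4a1 (-0.05) and Junb (-0.06) were lower. Higher by over 1.5-fold were 4 of the 7 and 1 of the 10, against 1958 of 18246 tested genes. The part of these lists in the precursors' difference was not tested.

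**Figure D4:**
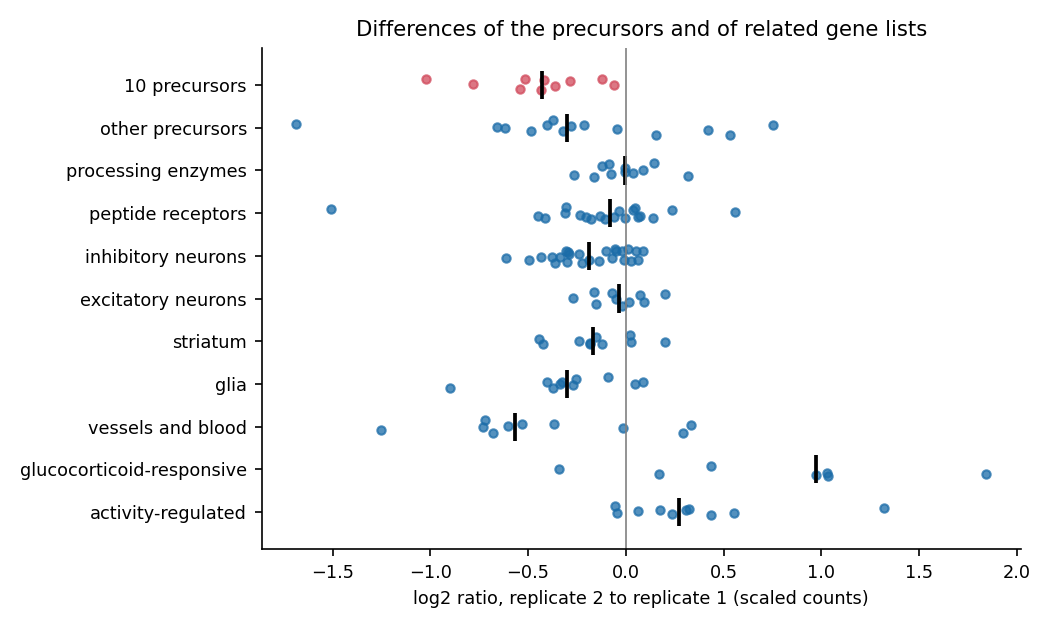
Log2 ratio of replicate 2 to replicate 1 of each gene (points, scaled with TMM) in the 10 precursors and in related lists, with each list's median as a black bar. The precursors (red) have a median of -0.43, inhibitory markers -0.19, glucocorticoid-responsive genes 0.97.

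Most other listed precursors lay below all 10 members in mean TPM. However, 5 of them exceeded Cort and Crh as well as Pnoc, some with overlapping libraries. Of 44 other precursor genes, 12 reached 1 TPM in both libraries, against 58.3% of nuclear protein-coding genes, and 9 were listed at 0 in both. Mean TPM of 5 exceeded that of Pnoc: Adcyap1 (17.0 and 13.7 TPM), the source of PACAP, Apln (7.88 and 9.00 TPM), Cartpt (8.55 and 6.67 TPM), Tac2 (6.98 and 6.98 TPM), the source of neurokinin B, and Grp (7.48 and 4.61 TPM). By these means Adcyap1 alone exceeded Pdyn, with overlapping libraries, while in the alignment-free tables Pdyn (23.0 and 18.5 TPM) was above Adcyap1 (17.1 and 14.5 TPM). Hcrt and Oxt, peptides of the hypothalamus, had 0 counts in the gene tables, where 3 counts correspond to 0.0927 and 0.121 CPM, the limit that a count of 0 allows. In the alignment-free tables Oxt had 0.979 and 1.89 TPM. Of 14 other precursors with enough counts 10 were lower in replicate 2, or 9 of 14 with spike-in scaling, with a median of -0.30. The lowest was Trh, thyrotropin-releasing hormone, at -1.69 from 72 and 16 counts.

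The processing enzymes and their partners ranged from high to low in level. All 11 genes were at 1 TPM or more in both libraries, against 58.3% of nuclear protein-coding genes, and their median was 22.2 TPM. The lowest were Qpct (3.55 and 4.02 TPM), Pcsk6 (3.54 and 3.61 TPM) and Pcsk5 (4.23 and 4.99 TPM). Cpe, the trimming carboxypeptidase, had 786 and 762 TPM. Scg5, the chaperone of the convertase Pcsk2, had 238 and 219 TPM, and Pcsk2 itself had 118 and 121 TPM. Pam, the amidating enzyme, had 110 and 112 TPM. None of the 11 passed 1.5-fold, and their median log2 ratio was -0.01, or 0.16 with spike-in scaling. Pcsk1, the other main convertase, was the highest of them at 0.32, with 16.2 and 20.6 TPM.

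Receptors for the member peptides were lower in level than Cck, Sst, Npy and Penk. Of 23 receptors, 16 were at 1 TPM or more in both libraries, against 58.3% of nuclear protein-coding genes. The highest was Adcyap1r1, which prefers PACAP over VIP, with 51.7 and 53.5 TPM. Cckbr, the main brain receptor of cholecystokinin, had 29.2 and 27.9 TPM, whereas Cckar had 3 and 2 counts. Oprl1, the nociceptin receptor, had 26.4 and 21.3 TPM, above its precursor Pnoc in both libraries.

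Among the opioid receptors proper, Oprd1 (delta) had 9.24 and 9.81 TPM, Oprm1 (mu) 3.37 and 3.81 TPM and Oprk1 (kappa) 2.93 and 3.43 TPM. Delta was thus above the other two in both libraries. Sstr1 to Sstr4 lay between 9.43 and 13.5 TPM, and Sstr5 had 19 and 4 counts. Vipr1 had 15.3 and 15.7 TPM, Crhr1 13.0 and 13.1 TPM and Npy1r 11.9 and 9.10 TPM, while Npy4r had 0 counts. The tachykinin receptors were low, with Tacr1 at 1.31 and 1.06 TPM and Tacr3 at 0.73 and 0.74 TPM.

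Of 20 receptors with enough counts 13 were lower in replicate 2, or 8 with spike-in scaling, and their median log2 ratio was -0.08. Only Sstr5 passed 1.5-fold, at -1.51. Of 9 binding and degrading proteins 4 were lower, or 2 with spike-in scaling, with a median of 0.06. Crhbp, which binds and neutralises corticotropin-releasing hormone and is made by cortical interneurons, was the lowest of these at -0.47, with 13.6 and 10.1 TPM.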

How the data were processed

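Each library has a gene table and a transcript table made from a transcriptome alignment, and an alignment-free transcript table made from the reads. The deposited tables refer to mm10 and GENCODE M21, per the text deposited with them. The alignment-based tables hold expected counts, which share out reads that match several genes, and TPM, per the file headers. In the alignment-free tables the deposited values are estimated counts and TPM. The aligner is not given in the sources used here, nor is either quantifier. The deposited gene tables also give other values, lower and upper TPM bounds with no stated confidence level. Effects of CAST/EiJ variants on placement to the C57BL/6J reference were not analysed here.

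The annotation held all 55536 gene identifiers. The 97 spike-ins (0.452% and 0.406% of counts) and 26248 short-RNA entries that name no gene were left out, leaving 32357983 and 24798683 counts. Spike-ins were taken as any entry named ERCC or phiX, and their counts were pooled for the spike-in scaling. The deposited expected counts were rounded, genes with a mean of 10 counts were kept, and log2 CPM (prior count 2) was scaled with edgeR 4.0.16 (TMM, R 4.3.3). Of these steps the TMM-scaled log2 ratio alone was tested on simulated data, with known folds, as many up as down. The real ratios were less balanced, with 1958 tested genes higher and 660 lower by over 1.5-fold. Intervals, spike-in scaling, length classes, transcript shares and sequence counts were not tested in this way. With 1 group and 2 libraries there was no test, and reads without molecular identifiers limit intervals to counting error. No member had reads shared with another gene. Peptide cores, basic pairs and amidation signals were counted in coding parts of GENCODE M21 transcripts read from mm10, in place of the RefSeq proteins first planned. Promoters came from RefSeq (GRCm38.p6), where 7 members have an entry.

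All 10 members are named, from the lists the most abundant or defining genes and the low ones a count speaks of, and some genes at the ends of a list after their values were seen. The members and lists were chosen with earlier results of these data known. Alternatives were other scalings (DESeq2 1.42.0 size factors, library size, spike-ins), tables, pseudocounts, prior counts, filters and thresholds.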

Additional observations from a re-analysis of the deposited data

How the results depend on the processing

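The order of the 10 precursors was the same in the alignment-free tables, with TPM over nuclear protein-coding genes alone and with posterior mean TPM. The levels themselves depended on the table, since the alignment-free and the protein-coding TPM moved all 10 by more than 1 SD. Alignment-free TPM was 1.42 (Pdyn) to 2.32 (Cck) times the gene table, with a median of 1.55, against 1.62 over expressed nuclear protein-coding genes. Of 109 member ratios under an alternative, 106 kept their direction and their side of the threshold and 3 changed sign: with spike-in scaling Sst was at 0.0363 and Penk at 0.0972, and relative to its length class, an alternative added after seeing the data, Penk was at 0.0232. With a threshold of 2-fold 1 member was called in place of 2. Cort had too few counts for the filter at a mean of 100 counts. No paired analysis was possible because the study has 1 group, and leaving out a replicate leaves no ratio. Depth limits Cort, Crh and Pnoc most.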
